A study of Mus musculus with 5 samples.

Results

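The genes described here encode the nuclear part of the oxidative phosphorylation (OXPHOS) system of mitochondria, compared among 5 groups of projection neurons of the mouse primary somatosensory cortex (S1). Members were all genes of the array with a probe set annotated to 1 symbol that begins with Ndufa, Ndufb, Ndufc, Ndufs, or Ndufv and a number, with Uqcr, with Cox4 to Cox8, or with Atp5, or that is Sdha, Sdhb, Sdhc, or Sdhd. Pseudogene symbols were left out. This rule uses names and no measured value, and it gave 81 of the 19938 named genes. Of these, 79 reached the median signal of the array in at least 1 group, as did 12632 genes in all. Cox7b2 and Cox8b, forms of cytochrome c oxidase subunits known from other tissues, did not reach it. Cox7c and Ndufb4 were read only by probe sets annotated to several symbols, where Cox7c lay between 7.18 and 7.22 and Ndufb4 between 5.91 and 6.52 above the array median.

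Each group was 1 array, hybridized with amplified cDNA of about 1000 laser-microdissected neurons of ICR mice at postnatal day 24 (PD24). Green RetroBeads, a retrograde tracer, had been injected into the primary motor cortex (M1) to mark association neurons, which were collected from layer (L) 2/3, L5, and L6b, or into the contralateral S1 to mark callosal neurons, which were collected from L2/3 and L5. All groups share, by the methods, the in utero electroporation of a plasmid that expresses the fluorescent protein tdTomato from the pCAGGS promoter, and the sources used here do not give how many animals made up a group. L6b is the thin deepest layer of the cortex, derived from the subplate. With 1 array per group there is no spread between replicates, no test was made, and every difference below is a description of 5 arrays.

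Oxidative phosphorylation is the main source of ATP in neurons. Complex I (NADH dehydrogenase) and complex II (succinate dehydrogenase) pass electrons to ubiquinone, complex III (cytochrome bc1) passes them on to cytochrome c, and complex IV (cytochrome c oxidase) gives them to oxygen, while complexes I, III, and IV pump protons that drive complex V (ATP synthase). Complexes I, III, IV, and V are built from subunits of both the nuclear and the mitochondrial genome, whereas complex II is entirely nuclear-encoded, so that the nuclear genes need to be expressed in step with each other and with mitochondrial DNA. NRF1, ETS family factors such as GABP, YY1, and the estrogen-related receptors, together with the coactivator PGC-1α (Ppargc1a), are the regulators best known for this.

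These factors bind short motifs near transcription starts, so promoters of the members that stood out in the comparisons are shown as windows of 30 bases, read 5′ to 3′ on the strand of the gene. The sequences are from RefSeq (GRCm38.p6), where 66 of the 81 members have a promoter window of 300 bases, from 250 before to 50 after the start. The capitals mark the letters searched for, GCGC and TGCGC with any base between them for NRF1, CCGGAAG for the ETS family, AAGATGGCG for YY1, and TCAAGGTCA for the estrogen-related receptors (ERR), on either strand.
Atp5k, NRF1 motif, chr5:108434430-108434459, minus strand: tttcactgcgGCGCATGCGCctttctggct
Atp5g3, NRF1 motif, chr2:73911295-73911324, minus strand: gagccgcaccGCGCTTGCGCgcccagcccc
Sdhd, NRF1 motif, chr9:50603909-50603938, minus strand: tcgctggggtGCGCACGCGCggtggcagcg
Atp5g3, ERR motif, chr2:73911359-73911388, minus strand: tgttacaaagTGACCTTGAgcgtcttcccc
Ndufs3, ETS motif, chr2:90904730-90904759, minus strand: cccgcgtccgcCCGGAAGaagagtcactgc
Ndufs8, ETS motif, chr19:3912741-3912770, minus strand: ttaggctccgcCTTCCGGttgaaccgcatc
Cox8a, ETS motif, chr19:7217603-7217632, minus strand: tttccgaaataCTTCCGGctcgggcgtccg
Ndufs4, YY1 motif, chr13:114388045-114388074, minus strand: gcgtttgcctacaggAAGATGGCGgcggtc
Ndufs7, YY1 motif, chr10:80249463-80249492, plus strand: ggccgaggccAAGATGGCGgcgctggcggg

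The NRF1 letters were found in 16 of the 66 member promoters (24.2%) and in 7.17% of the promoters of all 17491 protein-coding genes in the table. The ETS letters were found in 17 members (25.8%) and in 12.9% of coding genes, the YY1 letters in 7 (10.6%) and in 2.14%, and the ERR letters in 2 (3.03%), Atp5g3 and Sdhd, and in 0.377%. An ETS and a YY1 match can share the letters AAG, and no member had such an overlap. Basal promoter elements were as common as elsewhere, with CCAAT in 29 members (43.9%) against 42.3% and TATAAA in 8 (12.1%) against 14.8%. Another coding gene started in the opposite direction within 1 kb of 18 of the 66 members (27.3%), against 8.48% of coding genes. Among these neighbors, Atp5j lies beside Gabpa, which encodes the DNA-binding subunit of GABP, Ndufb5 beside the mitochondrial ribosomal gene Mrpl47, and Sdhd beside Timm8b, which encodes a chaperone of mitochondrial protein import. A match of letters is a description of the sequence and not evidence of binding.

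The signals of the members were given on a log2 scale relative to the median of the array, which lay between 5.71 and 5.8 before subtraction. Of the 81 members, 74 were at or above the 75th percentile of all genes by mean signal, as were 4988 genes in all. The 5 arrays correlated with each other at Pearson's r of 0.918 to 0.938 over all probe sets. The deposited values hold many ties, and at least 2 arrays had the same value in 41.8% of the members and in 66.7% of all genes past the filter. The subtraction splits such ties where the array medians differ. Ndufs1, with the same deposited value in all 5 arrays, thus reads 3.87 in association L2/3 and 3.78 in L6b. Counts of highest and lowest arrays and counts by sign include these split ties, which are more common in all genes than in the members. Labels were checked with the L6b marker genes Cplx3, Ccn2 (Ctgf), Nxph4, Nr4a2, and Kcnab1, of which 5 of 5 were highest in the L6b array (Cplx3 at 5.22 there and at most 0.39 elsewhere). The paper chose Kcnab1 from these same arrays for its enrichment in L6b, so its maximum there was fixed in advance and is no check. Ctgf, a marker known before, was among the same candidates. The same arrays differed in genes of other cells, with parvalbumin (Pvalb) at -1.38 in L6b and between 2.26 and 4.57 in the other 4, and with myelin genes higher in L5 and L6b than in L2/3. The arrays thus differed in signal from other cell types, and in bulk samples fewer cells of a type and less RNA per cell cannot be told apart.

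The first question was in which population the members were highest. The OXPHOS genes were most often highest in an L5 array and most often lowest in the association arrays of L2/3 and L6b. Callosal L5 held the highest signal of 30 of the 79 members (38.0%), among them Cox4i1, Cox5a, Cox6c, Atp5b, and Ndufs4, against 15.4% of all genes past the filter. Association L5 was highest for 25 members (31.6%), among them Cox8a, Atp5a1, Atp5g3, and Ndufv1, against 16.8% of all genes. Together 55 members (69.6%) were highest in an L5 array, where the background was 32.3%. Association L2/3 was highest for 2 members against 27.4% of all genes, association L6b for 4 against 21.3%, and callosal L2/3 for 14 against 15.0%. In the values as deposited, callosal L5 was highest for 28 members and association L5 for 26 (15.0% and 18.3% of all genes). Association L2/3 was then highest for 0, L6b for 8, and callosal L2/3 for 12 (17.2%, 26.6%, and 14.9% of all genes).

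At the other end, association L2/3 was lowest for 29 members (36.7%) against 19.6% of all genes, and L6b for 27 (34.2%) against 30.5%, a share near the background. Callosal L2/3 was lowest for 12 members (background 15.5%), association L5 for 6 (background 19.6%), and callosal L5 for 2 (background 11.9%), Ndufs7 and Uqcrfs1. The split between association L2/3 and L6b depended on the scaling, since in the values as deposited 38 members (48.1%) were lowest in association L2/3 and 20 (25.3%) in L6b, against 25.4% and 17.4% of all genes. The L6b share was then above that of all genes and below that of genes above the 75th percentile of signal (29.7%). With the array medians subtracted, 37.0% of those genes were lowest in L6b. By complex, 9 of 17 complex V genes and 13 of 33 complex I genes were lowest in L6b, and none of the 8 complex III genes. Association L2/3 was lowest for 8 of 17 genes each of complexes IV and V.

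**Figure D1:**
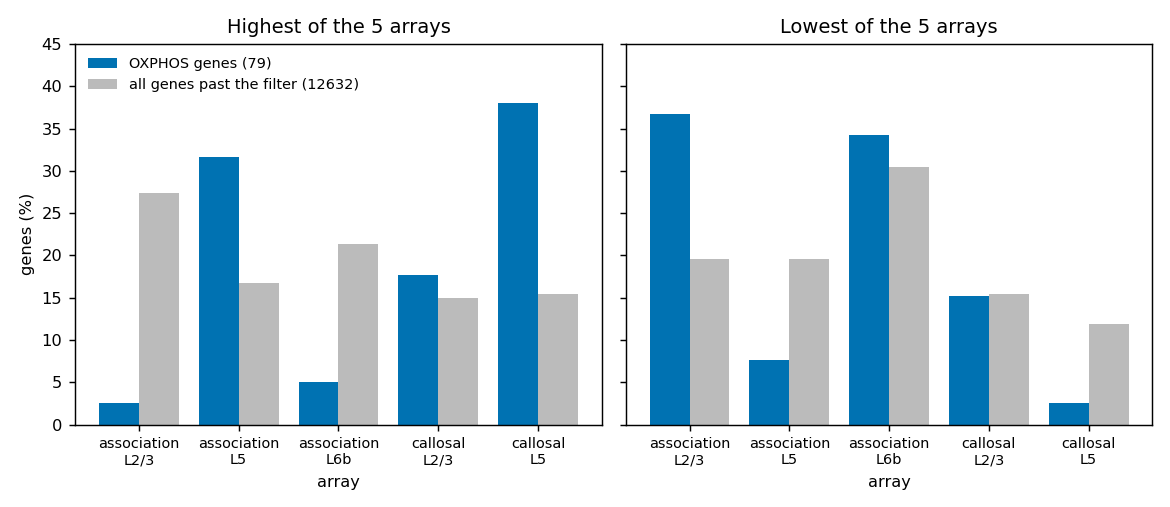
Percent of the 79 OXPHOS genes (blue) and of all 12632 genes past the filter (gray) whose log2 signal, relative to the array median, was the highest (left) or the lowest (right) of the 5 arrays. Callosal L5 (38.0% of the OXPHOS genes) and association L5 (31.6%) held most of the highest signals and association L2/3 (36.7%) and L6b (34.2%) most of the lowest ones.

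The sizes of these differences were small. The range of a member over the 5 arrays had a median of 0.51 on the log2 scale, close to that of all genes (0.53) and below that of genes above the 75th percentile of signal (0.91). In 62 members all 5 arrays lay within 2-fold of each other, and 17 (21.5%) spanned at least 2-fold. This was so in 29.5% of all genes and in 46.5% of genes above the 75th percentile of signal. Complex I contributed 10 of the 17, and its median range was 0.66, against 0.38 in complex IV and 0.43 in complex V. The smallest ranges were those of Ndufa4 and the stalk gene Atp5pb of complex V (0.08 each), whereas the 6 core genes of complex I had a median range of 1.25, with 2.6 in Ndufs8. Among the catalytic genes, Atp5b, the catalytic β subunit of ATP synthase, measured 5.99 in association L2/3, 5.98 in association L5, and 5.95 in L6b, and 6.00 and 6.07 in the callosal arrays of L2/3 and L5. All 5 arrays lay within 0.12 of each other. Ndufs1, which carries iron-sulfur clusters of the electron input module of complex I, had the same deposited value, 9.58, in all 5 arrays.

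**Figure D2:**
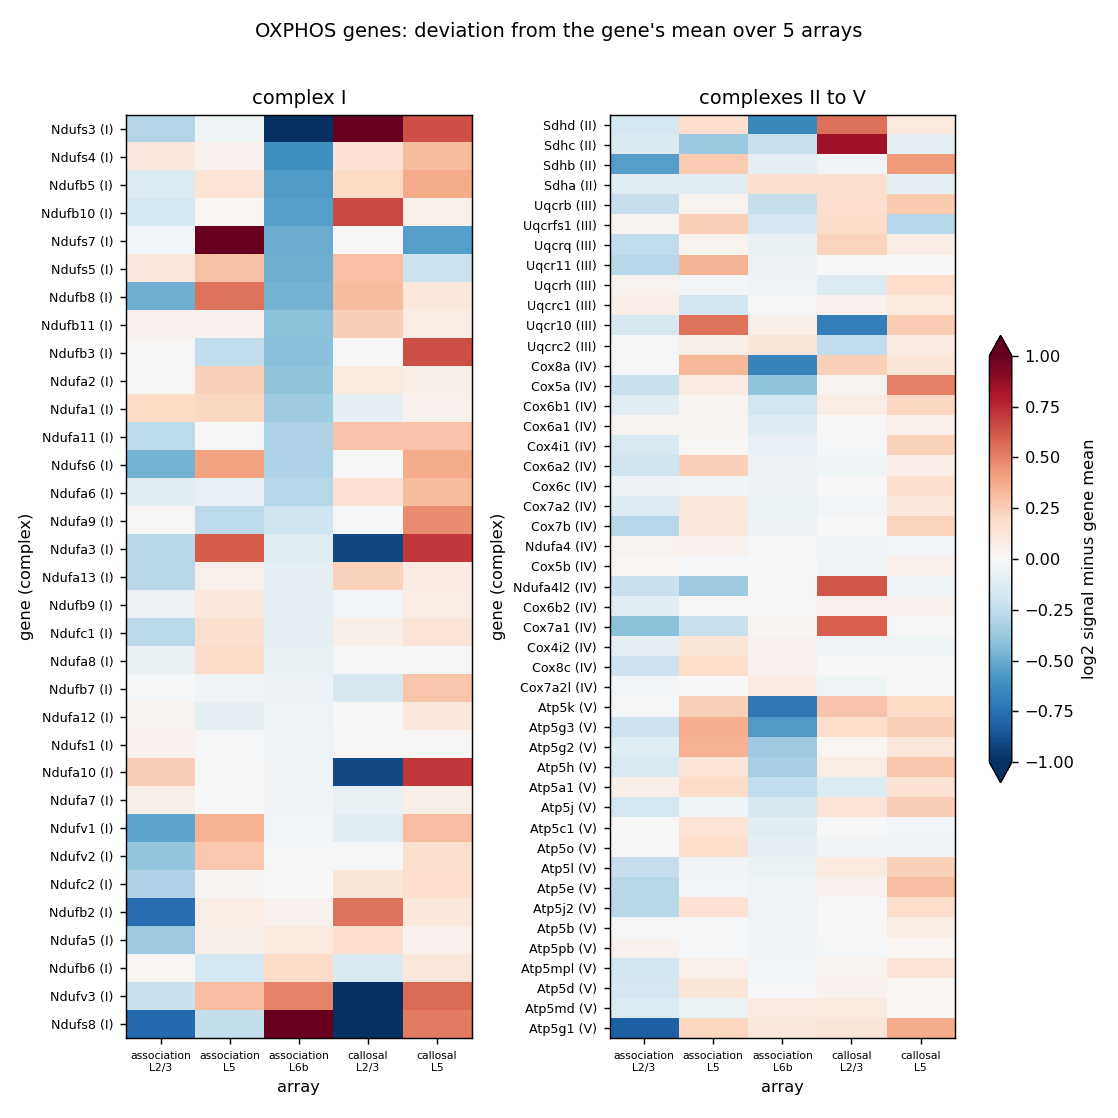
Log2 signal of each of the 79 OXPHOS genes in each array minus the mean of that gene over the 5 arrays, with genes in rows by complex and, within a complex, by L6b enrichment, and arrays in columns. Red is above and blue below the gene's own mean, colors end at -1 and 1, and the callosal L5 column is mostly red while the association L2/3 column is mostly blue.

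The comparison of layers within a projection asked whether L5 and L2/3 neurons differ. Among association neurons, 61 of 79 members had a higher signal in L5 than in L2/3 and 17 a lower one, while 39.9% of all genes were higher and 58.9% lower. The median difference was 0.21 in the members, -0.06 in all genes, and -0.06 in genes above the 75th percentile of signal. Ndufs1, tied as deposited, also had -0.06, so the shares of all genes include ties split by the subtraction. Among callosal neurons 49 members were higher and 23 lower, against 39.7% and 35.8% of all genes, with a median of 0.09 in the members and 0.0 in all genes. The 2 differences share no array. In both, 35 members (44.3%) were higher in L5, against 17.1% of all genes, and 2 (2.53%), Sdhc and Ndufa4l2, were lower, against 22.5%. Both L5 arrays lay above both L2/3 arrays in 24 members (30.4%), against 9.85% of all genes.

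How far the share of members higher in L5 in both projections stood above the background depended on the scaling. This was examined after the values were seen. After quantile normalization the share was 34 of 79 members, against 34.3% of all genes. After subtraction of the 75th percentile of each array it was 53 of 79, against 47.7%. The members were above all genes in both, by less than after subtraction of the median. The association difference kept its sign, with a median of 0.18 after quantile normalization and 0.31 after subtraction of the 75th percentile, and all genes at 0.01 and 0.04. The number of members highest in an L5 array was 45 and 56 under these scalings, with 35.8% and 33.0% of all genes.

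Complex V gave the most uniform difference between layers. Of its 17 genes, 15 were higher in L5 than in L2/3 among association neurons, with a median of 0.24, and 12 among callosal neurons, with a median of 0.09. The 3 genes for subunit c, which forms the rotating ring in the membrane and is the same mature protein from each gene, were higher in L5 in both projections. Atp5g1 measured 3.55 in association L2/3, 4.58 in association L5, and 4.47 in L6b, and 4.49 and 4.74 in the callosal arrays of L2/3 and L5. Association L2/3 stood 0.92 below the next array, and L5 was 2.04-fold higher than L2/3 among association neurons and 1.19-fold among callosal neurons. Atp5g2 measured 3.24, 3.71, 3.00, 3.38, and 3.47 in the same order of arrays, and Atp5g3 5.63, 6.20, 5.27, 6.01, and 6.08. Both were highest in association L5 and lowest in L6b, so that L6b went with the other arrays for Atp5g1 only. Among the F1 genes of the catalytic head, Atp5a1 measured 5.15, 5.27, 4.84, 4.95, and 5.23, highest in association L5 by 0.04.

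In complex IV, 14 of 17 genes were higher in L5 among association neurons (median 0.16) and 11 among callosal neurons (median 0.05). Of the 11 forms of general expression, 10 were highest in an L5 array. Cox4i1, the general form of subunit 4, measured 6.20 in association L2/3, 6.36 in association L5, and 6.27 in L6b, and 6.34 and 6.58 in the callosal arrays of L2/3 and L5. Cox5a, a matrix-side subunit, measured 4.76, 5.07, 4.58, 5.01, and 5.48 in the same order. In both, callosal L5 was the highest array, for Cox5a by 0.41 over the next.

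Forms known from heart, skeletal muscle, lung, or testis stayed close to the array median in most groups, at 1.79 or less. Cox4i2, the lung form of subunit 4, lay between 0.45 and 0.66, the testis form Cox6b2 between -0.09 and 0.06, and Cox8c between -0.31 and 0.07. Cox6a2, the heart and muscle form of subunit 6a, was measured at 1.35 in association L2/3, 1.79 in association L5, and 1.49 in L6b, and 1.51 and 1.62 in the callosal arrays of L2/3 and L5. It is also known from parvalbumin interneurons, and Pvalb measured 4.57, 4.41, -1.38, 2.26, and 4.52 in the same order. The part of these cells in the Cox6a2 signal was not tested. Cox7a1 reached 0.73 and Ndufa4l2, the hypoxia-induced form of Ndufa4, 1.11 in callosal L2/3, with the other arrays between -0.28 and 0.16 and between 0.14 and 0.49, respectively. Of their general counterparts, Cox6a1 ranged from 6.79 to 6.97, Cox6b1 from 6.35 to 6.74, Cox7a2 from 5.67 to 5.91, and Cox7b from 5.99 to 6.50. Ndufa4 ranged from 6.94 to 7.02, and Cox8a from 4.93 to 5.93. The low forms were those named for other tissues, and none of these ranges spanned 2-fold except those of Cox7a1 (1.01) and Cox8a (1.0).

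The largest layer differences were in complex I, and those of Ndufs7 and Ndufa10 had opposite signs in the projections. Ndufs7, which carries the last iron-sulfur cluster before ubiquinone, measured 2.74 in association L2/3, 3.84 in association L5, and 2.27 in L6b, and 2.78 and 2.22 in the callosal arrays of L2/3 and L5. It was the member called at least 2-fold higher in association L5 than in each other array, where 1.31% of all genes were called, and the callosal L5 array was the lowest. No member was called lower in association L5 (0.823% of all genes), or higher or lower in association L2/3 (2.34% and 0.158%), callosal L2/3 (1.67% and 0.451%), or callosal L5 (1.31% and 0.356%). Ndufv3, a small accessory subunit of the NADH-binding module, measured 3.97, 4.50, 4.69, 3.04, and 4.76 in the same order. L5 was 3.29-fold above L2/3 among callosal neurons and 1.44-fold among association neurons, and callosal L2/3 lay below the other 4 arrays.

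Ndufs8, Ndufa3, and Ndufa10 were also at least 2-fold higher in callosal L5 than in callosal L2/3 (4 members, with 4.08% of all genes). Ndufa3 was at 2.64 and Ndufa10 at 3.89 in callosal L2/3, their lowest array in each case. Ndufa3 and Ndufs8 were also higher in L5 among association neurons (0.88 and 0.54 on the log2 scale), and Ndufa10 was lower there (-0.25). Among association neurons, Ndufs7, Ndufb8, and Atp5g1 were at least 2-fold higher in L5 (3 members, with 3.48% of all genes), and no member was at least 2-fold lower in L5 in either projection (7.36% and 4.52% of all genes).

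**Figure D3:**
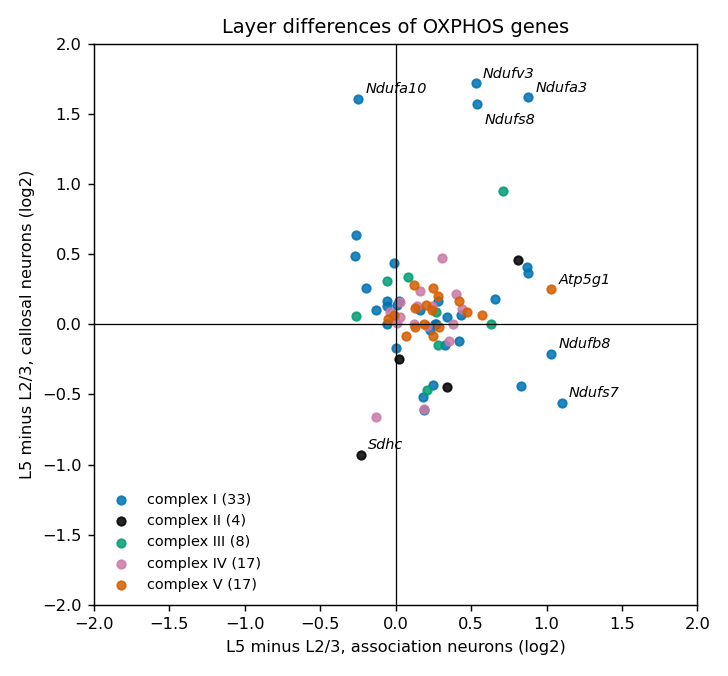
Difference between L5 and L2/3 in log2 signal for each of the 79 OXPHOS genes among association neurons (horizontal) and callosal neurons (vertical), with colors for the complexes and the number of genes in parentheses. The upper right part, higher in L5 in both projections, holds 35 genes and the lower left part 2, and most points lie within 0.5 of 0 on both axes.

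Markers of other cells moved with the layers. Of 6 myelin genes with a probe set, 6 were higher in L5 than in L2/3 in both projections, with a median difference of 0.97 among association and 0.92 among callosal neurons, and Mog, Mobp, and Mbp had the largest L6b enrichment (3.31, 1.30, and 1.16). Summed on the linear scale in units of the array median, they gave 10.7 in association L2/3, 42.1 in association L5, and 45.3 in L6b, and 11.2 and 23.3 in the callosal arrays of L2/3 and L5. Microglial genes (6 of 6 past the filter) summed to between 8.53 and 9.96 and endothelial genes (4 of 6 past it) to between 7.12 and 8.36. Single genes of these lists varied more, with Aif1 of microglia between -0.13 and 1.32 and higher in L5 in both projections (by 0.81 and 1.45), and Cldn5 of endothelial cells between 1.10 and 2.04. The astrocyte genes (5 of 6) summed to between 13.8 in L6b and 50.6 in callosal L5, through Aldoc (2.41 in L6b and 4.61 to 5.41 elsewhere), with Gfap below the array median in all 5. The part of these cells in the layer differences was not tested.

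The comparison of projections within a layer asked whether association and callosal neurons differ. In L2/3, 55 of 79 members were lower in association than in callosal neurons and 24 higher, while 40.5% of all genes were lower and 58.2% higher. The median difference was -0.19 in the members and 0.03 in all genes. In L5, 49 members were lower and 29 higher, against 62.9% and 35.8% of all genes, and both medians were -0.03. In both layers together, 32 members (40.5%) were higher in callosal neurons, against 24.7% of all genes, and 6 (7.59%), Atp5a1, Atp5c1, Atp5o, Ndufa1, Ndufa4, and Uqcr10, were higher in association neurons, against 20.0%. In the median-subtracted values, the members thus went with the shares of all genes in L5 and apart from them in L2/3. These shares include ties split by the subtraction. Ndufs1, tied as deposited, had 0.03 in L2/3 and -0.03 in L5, the same as the medians of all genes. How far the split ties set the background was not tested.

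The largest differences between projections were again in complex I. Ndufs3, a core subunit of the ubiquinone-binding module, was 2.58-fold lower in association than in callosal L2/3 (3.99 and 5.36), and Ndufs7 3.07-fold higher in association than in callosal L5. In L2/3, Ndufs3, Ndufb2, and Cox7a1 were at least 2-fold lower in association neurons (3 members, with 3.48% of all genes) and Ndufa10 at least 2-fold higher (1 member, with 5.07%). In L5, Ndufs7 was the 1 member at least 2-fold higher (background 3.49%), and none was at least 2-fold lower (background 4.97%). All 4 complex II genes were lower in association L2/3 than in callosal L2/3, with a median of -0.62. Sdhc, a membrane anchor, measured 4.57 in association L2/3, 4.34 in association L5, and 4.49 in L6b, and 5.55 and 4.62 in the callosal arrays of L2/3 and L5, so that callosal L2/3 stood 0.93 above the next array.

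The comparison of L6b with the other populations used the L6b enrichment, the log2 signal in L6b less the mean signal of the 4 remaining arrays. It was below 0 in 64 members (81.0%) and above 0 in 15, against 62.8% and 36.7% of all genes and, below 0, 67.3% of genes above the 75th percentile of signal. L6b was the highest array for 5.06% of the members and for 21.3% of all genes, as given above. The median was -0.08 in the members, -0.06 in all genes, and -0.12 in genes above the 75th percentile of signal. Ndufs1, tied as deposited, also had -0.06, so counts below 0 include ties split by the subtraction. The members were thus below 0 more often than other genes, with a median between those of both sets of genes. Their distribution had a longer lower side, with quartiles of -0.37 and -0.01 against -0.25 and 0.10 in all genes. Against association L5 alone, L6b was lower in 63 members and higher in 15 (57.2% and 41.6% of all genes), with a median of -0.17 against -0.03 in all genes. In 4 members, Cox8a, Ndufb8, Ndufs3, and Ndufs7, it was at least 2-fold lower (7.16% of all genes), and in 1, Ndufs8, at least 2-fold higher (3.5%). Against association L2/3 alone, 39 members were lower and 37 higher (58.8% and 39.9% of all genes), with a median of 0.0 against -0.09, and Ndufs3 was the 1 member at least 2-fold lower (10.6%) and Ndufs8 the 1 at least 2-fold higher (2.83%). These comparisons share the L6b array.

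Exceptions in both directions were core subunits of complex I. Ndufs8, which carries a pair of iron-sulfur clusters on the path to ubiquinone, measured 2.75 in association L2/3, 3.29 in association L5, and 5.08 in L6b, and 2.48 and 4.05 in the callosal arrays of L2/3 and L5. L6b stood 1.03 above the next array and 3.83-fold above the mean of the other 4, and this was the 1 member called at least 2-fold higher in L6b (background 1.26%). Ndufs3 went the other way, with 3.99, 4.24, 2.90, 5.36, and 4.93 in the same order. L6b was 3.32-fold below the mean of the other 4, and Ndufs3 was the 1 member called at least 2-fold lower in L6b (background 2.82%). A second probe set of Ndufs3 gave an L6b enrichment of -1.45, against -1.73, and the call was lost under 3 other settings, with association L2/3 only 1.09 above L6b. Products of both genes belong to the ubiquinone-binding module of complex I.

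**Figure D4:**
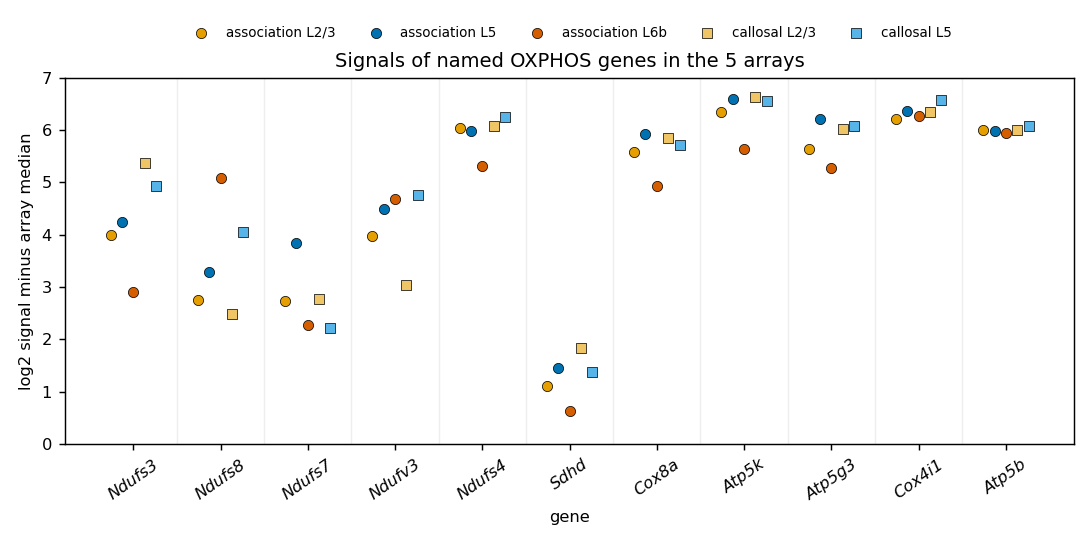
Log2 signal minus the array median of 11 OXPHOS genes in the 5 arrays, with circles for association and squares for callosal neurons and colors for the layer, 1 point per array. Ndufs8 was highest in L6b (5.08), Ndufs3 (2.90), Ndufs4, Sdhd, Cox8a, Atp5k, and Atp5g3 were lowest in L6b, and Cox4i1 and Atp5b were nearly level. Only points of the same gene can be compared.

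In complexes I, II, IV, and V further genes were lower in L6b by more than the typical member. In complex I, Ndufs4, an accessory subunit mutated in Leigh syndrome, measured 6.04 in association L2/3, 5.98 in association L5, and 5.32 in L6b, and 6.08 and 6.25 in the callosal arrays of L2/3 and L5. L6b lay 0.66 below the next array, while the other 4 were within 0.27 of each other. In complex II, the membrane anchor Sdhd measured 1.11, 1.45, 0.64, 1.83, and 1.38 in the same order, and in complex IV, Cox8a, the smallest general subunit, 5.58, 5.93, 4.93, 5.84, and 5.72. In both the L6b array was the lowest, 1.74-fold and 1.79-fold below the mean of the others.

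In complex V, Atp5k, subunit e of the membrane part that joins ATP synthase into dimers, measured 6.34 in association L2/3, 6.59 in association L5, and 5.63 in L6b, and 6.63 and 6.55 in the callosal arrays of L2/3 and L5. This was 1.86-fold below the mean of the other 4, and Atp5g3 was 1.64-fold below. Other membrane subunits of the same part were level, since Atp5md, which helps to hold the dimers, measured 6.90, 6.97, 7.12, 7.13, and 7.05. L6b was thus low for Atp5k and not for Atp5md. In complex III no gene was far from its other arrays, and the enrichment ran from -0.29 in Uqcrb and -0.21 in the Rieske protein gene Uqcrfs1 to 0.07 in Uqcr10 and 0.15 in the core protein gene Uqcrc2, with Uqcrc1 at -0.02.

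Few members were higher in L6b. Ndufv3 had an enrichment of 0.62, which was 0.28 without the callosal L2/3 array, and its L6b signal (4.69) was below that of callosal L5 (4.76). The accessory subunit gene Ndufb6 had 0.24 and was 1 of the 4 members highest in L6b, 0.08 above the next array. Sdha, the flavoprotein of complex II, had 0.20, Atp5g1 0.13, Ndufa5 0.12, Atp5md 0.11, Cox7a2l 0.10, and Cox8c 0.06. Apart from Cox7a2l, L6b was the single highest array for none of them, and Cox8c lay below the array median there (-0.06). Among these Cox7a2l, which takes part in joining complexes III and IV, is uncertain, because its 2 probe sets gave 0.10 and -0.45. Of the 16 members with several probe sets, only Ndufc1 (-0.11 and -0.62) also differed by more than 0.5. Sdhb, the iron-sulfur subunit of complex II, was at -0.12, Sdhc at -0.28, and Ndufv1, which binds NADH, at -0.03.

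**Figure D5:**
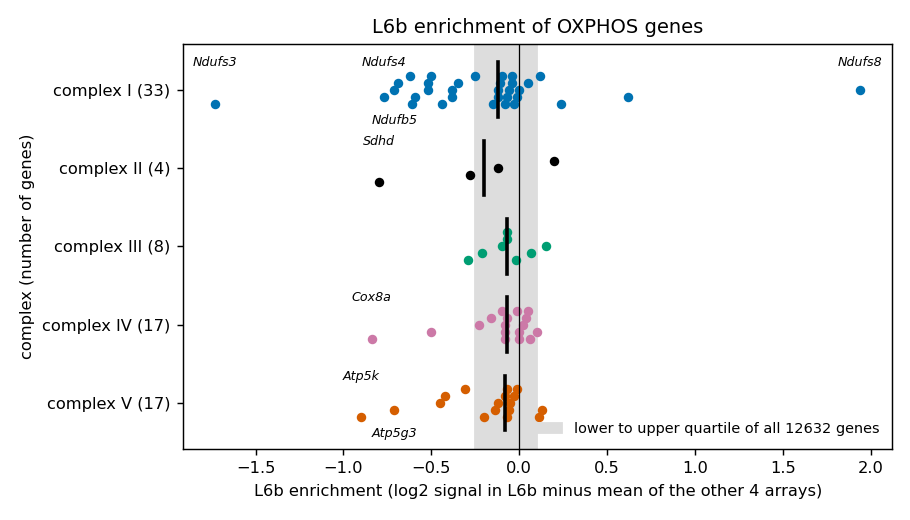
L6b enrichment (log2 signal in L6b less the mean of the 4 remaining arrays) of each of the 79 OXPHOS genes by complex, with black bars for the median of a complex and a gray band from the lower to the upper quartile of all 12632 genes. Medians lay between -0.20 (complex II) and -0.07 (complexes III and IV), inside the band, and single genes such as Ndufs3 (-1.73) and Ndufs8 (1.94) lay far outside it.

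The members with the NRF1 letters in the promoter had a median L6b enrichment of -0.36 (16 genes), and the other members with a promoter and past the filter -0.07. For the ETS letters the medians were -0.12 and -0.08, and for the YY1 letters -0.25 and -0.08. In the association L5 and L2/3 difference the members with and without the NRF1 letters had medians of 0.26 and 0.22. These are descriptions of few genes. The sequences of Atp5k, Atp5g3, and Sdhd above were shown because these genes stood out, so their low enrichment adds nothing to the medians. The NRF1 letters were also found in Sdha (0.20) and Ndufa5 (0.12). They were not found in Ndufs3 (-1.73), Cox8a (-0.84), or Ndufs4 (-0.77).

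The mRNAs of regulators of mitochondrial gene expression were not uniform either. This list is wider than the factors named above and also holds genes that act on mitochondrial DNA or RNA, such as Polg, Polrmt, and Lrpprc. Of 18 genes of this list with a named probe set, 15 passed the filter, with a median L6b enrichment of -0.23 against -0.06 in all genes. Of these, 8 were lowest in L6b and none highest, against 30.5% and 21.3% of all genes. Among the 8, Polg and Lrpprc differed between arrays only as the tied Ndufs1 did, by -0.03 from association L5 and -0.09 from association L2/3. Gabpb1 and Slirp lay 0.03 and 0.02 below the next array, less than the spread of the array medians. The count in the values as deposited was not made. Ppargc1a, the coactivator of the program, measured 3.65 in association L2/3, 3.70 in association L5, and 1.63 in L6b, and 3.27 and 2.82 in the callosal arrays of L2/3 and L5. L6b stood 1.19 below the next array, a 2-fold call that 2.82% of all genes had. Tfb2m, a mitochondrial transcription factor, was also called lower in L6b, at -1.23 against -0.17 to 2.01 elsewhere, and Gabpa was at -0.26 there and between -0.04 and 1.80 elsewhere. Yy1 was at 0.91 in L6b and between 1.79 and 2.65 elsewhere. Of the estrogen-related receptors, Esrrg was 2.84 in association L5 and between 0.34 and 1.39 in the others, and Esrra was between 0.33 and 0.37 in all 5. Nrf1 itself was below the array median in all 5 arrays.

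GABAergic markers were also low in L6b, and Ppargc1a is known to be abundant in parvalbumin interneurons. Of 6 such genes, 6 had an L6b enrichment below 0, with Pvalb at -5.32, Sst at -1.78, and Gad1 at -1.03, and these genes summed to 59.8 in association L2/3, 45.7 in association L5, and 13.9 in L6b, and 36.2 and 60.5 in the callosal arrays of L2/3 and L5. Glutamatergic markers also differed. Of 5 with a probe set, 4 were below 0, with Camk2a at -2.71, Nrgn at -1.88, and Grin2b at -1.43, and a summed signal of 35.3 in L6b against 61.5 to 92.2 elsewhere. Slc17a7, the vesicular glutamate transporter of cortical projection neurons, was between 3.84 and 4.47 in all 5 arrays. The part of other cells in the L6b values of the members was not tested.

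Partner genes of the same machinery were compared on the same scale. Of the 13 mitochondrially encoded subunits, 2 had a probe set with 1 symbol. ND3 measured 5.92 in association L2/3, 6.01 in association L5, and 5.92 in L6b, and 6.15 and 6.07 in the callosal arrays of L2/3 and L5. COX2 measured 6.88, 6.73, 6.79, 7.01, and 6.86 in the same order. Both were highest in callosal L2/3, and neither showed the L5 maximum of most nuclear members. Of 6 respiratory chain genes outside the naming rule, 4 were highest in an L5 array (32.3% of all genes). Cyc1, which encodes cytochrome c1 of complex III, measured 3.71, 5.32, 4.04, 4.10, and 4.10 in that order, a 2-fold call in association L5, and Ndufab1 (enrichment -0.83), Cycs (-0.67), and Higd1a (0.36) had the largest L6b values.

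Assembly factors varied more than the subunits they assemble. Of 41 with a named probe set 38 passed the filter, and 22 of these (57.9%) spanned at least 2-fold over the arrays. This was so in 21.5% of the members, 29.5% of all genes, and 58.4% of the mitochondrial ribosomal protein genes. The signals of the assembly factors were lower, with medians by array of 1.73 to 2.09 against 4.92 to 5.32 in the members. The part of signal level in the ranges was not tested. The L6b enrichment of the assembly factors had a median of -0.10, with 16 above and 22 below 0 (36.7% and 62.8% of all genes). It ran from -2.10 in the complex IV factor Surf1 and -1.38 in Ndufaf3 to 2.40 in Sdhaf4. Sdhaf4, which matures the Sdha flavoprotein, was at 4.84 in L6b and between 1.91 and 3.03 elsewhere, while Sdha ranged over 0.28 in all 5 arrays. Mitochondrial ribosomal protein genes (77) had a median L6b enrichment of -0.16 (23 above, 54 below), with Mrps15 at -2.39, Mrpl48 at -2.21, and Mrps23 at 2.11, and 44 of the 77 were highest in an L5 array (32.3% of all genes).

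Enzymes of the tricarboxylic acid cycle and pyruvate dehydrogenase, which supply the electrons, shared the L5 maximum but not the projection difference. Of 16 past the filter, 12 were highest in an L5 array, against 32.3% of all genes. The median difference between L5 and L2/3 was 0.44 among callosal neurons (12 higher, 2 lower) and 0.02 among association neurons, the reverse of the order in the OXPHOS members. Among callosal neurons 39.7% of all genes were higher and 35.8% lower. In L2/3 they were higher in association neurons, with a median of 0.19 (11 higher, 5 lower), where the members had -0.19 and all genes 0.03. The share higher, 68.8%, was not far from the 58.2% of all genes. The L6b enrichment had a median of -0.11, with Ogdh at -1.09, Idh3b at -0.60, and Suclg1 at -0.46. Carriers, porins, and protein import genes (15 past the filter) had a median L6b enrichment of -0.18. Slc25a5 was at -1.61, Slc25a11 at -1.29, and the import gene Tomm20 at 1.08. They were lower in L6b than in association L2/3 in 13 of 15 (58.8% of all genes). Among the 13, Slc25a14, Slc25a22, and Vdac3 differed by -0.09, as did Ndufs1, which is tied as deposited. Tomm40 and Slc25a4 differed by less (-0.04 and -0.02). The 3 X-linked members, Ndufa1, Ndufb11, and Cox7b, had L6b enrichments of -0.44, -0.52, and -0.07.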

How the data were processed

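Expression was read from 1 table of log2 signals per probe set that the authors deposited for 5 GeneChip Mouse Gene 1.0 ST arrays, 1 array per group. Affymetrix Expression Console is named in the submitters' processing notes, and the sources used here give neither its version nor the method that summarised the probes. The deposited log2 values ranged from 1.11 to 14.2 and are not centered per gene, so the log scale was taken from the values and the methods. Of 35556 probe sets, a platform annotation gave 1 symbol for 21789, several for 1621, and none for 12146. The 81 members have 105 such probe sets, and all 81 were matched by Entrez identifier to RefSeq, with 81 symbols the same.

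The median of each array was subtracted, the probe set with the highest mean was used for a gene, and genes below the array median in all 5 arrays were left out of the counts. Calls were differences of at least 2-fold from each other array. Ties that remained after the subtraction counted as neither highest nor lowest, and deposited ties were split where the array medians differed. The number of arrays limits the precision. No test was possible, and the steps were tested on simulated data.

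The members, their roles, the 15 lists (240 genes, 220 with a named probe set), the motifs, and the rules were chosen with earlier results of these data known. The lists are mitochondrially encoded subunits, respiratory chain genes outside the rule, assembly factors, regulators of mitochondrial gene expression, and tricarboxylic acid cycle enzymes. Others are carriers with porins and protein import genes, mitochondrial ribosomal proteins, and X-linked members. The rest are markers of glutamatergic and GABAergic neurons, myelin, astrocytes, microglia, endothelium, and L6b. Members named in the text are the 2 highest and 2 lowest by L6b enrichment in each complex, those with a 2-fold call, core subunits, isoform groups, and the largest difference in each comparison. Other genes named were chosen after their values were seen, apart from up to 3 of largest L6b enrichment in each list. Values as deposited, the 75th percentile, quantile normalization, 2 other filters, the mean of all probe sets, shared probe sets, other measures of enrichment, and leaving out each array were tried as alternatives. Python 3.11.15, pandas 2.3.3, and numpy 2.4.6 were used.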

Additional observations from a re-analysis of the deposited data

Results flagged for a closer look

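Ndufa10, an accessory subunit of complex I, differed between projections in opposite directions in the layers. It was higher in association than in callosal neurons by 1.15 on the log2 scale in L2/3, and the difference was -0.71 in L5. Its signals were 5.04 in association L2/3, 4.79 in association L5, and 4.76 in L6b, and 3.89 and 5.50 in the callosal arrays of L2/3 and L5. The difference between the layers was not tested, since each value is 1 array.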

How the results depend on the processing

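Of 127 values recomputed for the main comparisons, 111 moved by less than 0.1 on the log2 scale or by at most 1.5 times for counts, and 16 moved more. A reversal was defined only for differences of at least 2-fold. The main comparisons are counts and smaller medians, so none could be recorded as reversed. Subtraction of the 75th percentile changed the sign of the median L6b enrichment, from -0.08 to 0.02 (all genes from -0.06 to 0.05). It moved the median L6b and association L2/3 difference to 0.16. It gave 13 members highest and 17 lowest in L6b, none 2-fold lower there, and 53 higher in L5 in both projections. Quantile normalization gave 10 members highest in L6b, 0 that were 2-fold lower, and 6 lower in L5 in both projections. The values as deposited gave 8 highest in L6b, the mean of all probe sets 0 that were 2-fold lower, and the filter at the 75th percentile of mean signal 1 lower in L5 in both projections. Against the highest other array the median L6b enrichment was -0.33, and against the lowest 0.07. Leaving out 1 array at a time gave medians of -0.16 to -0.05, 29 to 50 members lowest (50 without association L2/3), and 4 to 9 highest in L6b (9 without callosal L2/3). The cause of these moves was not tested. No paired analysis was possible because each group is 1 array and the labels carry no replicate numbers. Depth does not apply to these signals, and which members near the array median lie above background was not determined.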
